A study of Mus musculus with 4 samples.

Results

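Slit2, Slit3, Robo1, Robo2, Robo4, Unc5b, Ntn1 and Ntn4 encode secreted guidance ligands and the receptors that read them, and they were followed here across every cell class and region of the embryonic mouse heart. They were chosen by gene symbol, as 8 of the 27998 genes in the count tables, and each symbol matched 1 gene in all 4 libraries. The hearts came from wild-type CD1 embryos at E16.5, and the regions were cut out by hand before droplet single-cell RNA sequencing of the 3' ends of transcripts. One library was made for each of 4 regions, which were the region of the sinoatrial node (SAN), the region of the atrioventricular node and bundle of His (AVN/His), and the left and right ventricular regions that hold the bundle branches and Purkinje fibers (BB/PF left and BB/PF right). All libraries share this genotype and age, no treatment was given, and nothing in the labels says how many embryos were pooled for a library. Because each region is 1 library, differences between regions are given with no test.

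Slit proteins are secreted and bind Robo receptors on neighboring cells, and netrins are secreted relatives of laminins that are read by Dcc, neogenin and the Unc5 receptors. Both systems were first described as cues that steer growing axons, and both also act in the forming heart and its vessels. Robo4 is an endothelial member of the Robo family and can bind Unc5b, so that a Robo protein on one cell can act on a netrin receptor on another.

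The positions of the genes were read from the GRCm38 annotation, the build named mm10 in the submitters' notes, and the gene identifiers in the count tables matched it for all 8. Among the ligands, Slit2 lies at chr5:47983138-48307733 on the plus strand, Slit3 at chr11:35121224-35708507 on the plus strand, Ntn1 at chr11:68209364-68400823 on the minus strand and Ntn4 at chr10:93640681-93747207 on the plus strand. Among the receptors, Robo1 lies at chr16:72308306-73046095 on the plus strand, Robo2 at chr16:73891839-74411825 on the minus strand, Robo4 at chr9:37401897-37415115 on the plus strand and Unc5b at chr10:60762593-60831581 on the minus strand. Robo4 spans 13219 bases, and the other members span from 68989 bases for Unc5b to 737790 bases for Robo1.

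The bases just before the first annotated transcript start are shown for 3 members, because Robo4 was found mainly in endothelial cells, Unc5b in most classes, and Slit2 in fibroblast-like cells and in a small group of ventricular conduction cells. They are reference sequence from RefSeq for GRCm38.p6, written from 5' to 3' on the strand of the gene, and 7 of the 8 members had such a stretch. Capitals mark the letters GGGCGG or TATAAA, read on either strand, 2 motifs chosen after the sequences were seen.
Robo4, chr9:37401722-37401896, plus strand: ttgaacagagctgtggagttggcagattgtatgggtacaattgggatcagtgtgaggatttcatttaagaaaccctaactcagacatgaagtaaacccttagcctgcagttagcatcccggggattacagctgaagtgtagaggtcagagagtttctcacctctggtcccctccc
Unc5b, chr10:60831582-60831831, minus strand: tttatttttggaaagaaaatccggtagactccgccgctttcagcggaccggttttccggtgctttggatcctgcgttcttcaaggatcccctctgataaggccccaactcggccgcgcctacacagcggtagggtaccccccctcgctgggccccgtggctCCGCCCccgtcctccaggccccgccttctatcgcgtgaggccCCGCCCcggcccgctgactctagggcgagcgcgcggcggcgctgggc
Slit2, chr5:47982905-47983137, plus strand: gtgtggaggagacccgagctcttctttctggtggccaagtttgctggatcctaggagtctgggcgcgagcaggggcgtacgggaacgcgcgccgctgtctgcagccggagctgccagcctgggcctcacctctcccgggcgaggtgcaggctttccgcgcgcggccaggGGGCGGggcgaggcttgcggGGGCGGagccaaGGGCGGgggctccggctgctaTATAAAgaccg
The 175 bases before Robo4 held neither motif and had a GC content of 47.4%. The 250 bases before Unc5b held 2 matches to GGGCGG, both on the opposite strand, with a GC content of 66.8%. The 233 bases before Slit2 held 3 matches to GGGCGG and 1 match to TATAAA, with a GC content of 70.4%. Over 32851 windows of the same lengths, the median GC content was 51.4%, 52.4% and 51.9%, GGGCGG was found in 20.2%, 32.7% and 30.3%, and TATAAA in 8.22%, 12.4% and 11.9%. The matches describe the letters only.

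Between 49328589 and 58029660 unique molecular identifiers (UMIs, counted transcript molecules) were counted per library, and 21035 of 22805 barcodes had at least 500 genes and were kept, 4356 to 5934 per library. Cell classes were formed by clustering within each zone, with the 8 genes and the other genes of their pathways left out, and were named from marker genes, each as "-like" because no annotation of the cells was used. The classes were cardiomyocyte-like (12049 cells), fibroblast-like (2869), vascular endothelial-like (1122), mural-like (1107), endocardial-like (887), macrophage-like (407), epicardial-like (207, in the SAN and AVN/His libraries), valve mesenchyme-like (405, AVN/His library) and neural or Schwann-like (46, SAN library). Every marker was more frequent in its own class than in all other cells, apart from Cnn1 in mural-like and Stmn2 in neural or Schwann-like cells. Because these same markers named the classes, this was in part built in and is no separate check of the names. Mixed mesenchyme, hemoglobin-rich cells and 18 unnamed cells were kept out of the comparisons. Libraries shared 29 to 49 barcodes per pair. A level is the number of UMIs of a gene per 10000 UMIs of a class in a library, with an exact 95% Poisson interval in brackets, and intervals and limits cover counting error only. Levels of different genes are not compared with each other. Macrophage-like cells served as the background for shares of cells with a UMI, since free RNA can add UMIs to any cell, and because macrophages of other tissues are known to carry Unc5b their share is an upper value for the background of that gene. This share is pooled over all libraries, which held 210, 85, 22 and 90 such cells (SAN, AVN/His, left and right), so it leans on the SAN library. Their median depth was 5767.5 to 7107 UMIs per cell, against 7335 to 9208 in fibroblast-like, 8663 to 10759.5 in cardiomyocyte-like and 9912 to 13689.5 in vascular endothelial-like cells.

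Among the ligands and the named classes, Slit2 was highest in fibroblast-like cells, the collagen-producing cells of the heart wall. Its fibroblast-like level was 1.40 (1.32 to 1.48) in the SAN, 0.901 (0.836 to 0.969) in the AVN/His, 0.453 (0.379 to 0.537) in the BB/PF left and 0.788 (0.713 to 0.868) in the BB/PF right library, a mean of 0.885 ± 0.392 (SD, n = 4 libraries). The SAN library stood highest and the left ventricular library lowest, and none of these intervals overlapped apart from those of the AVN/His and BB/PF right libraries. A Slit2 UMI was found in 58.1%, 44.1%, 28.7% and 47.3% of these cells in the same order, and in 4.42% of macrophage-like cells. After each cell was thinned to 1500 UMIs the shares were 19.4%, 15.4%, 6.84% and 11.1%, so the order of the SAN and left libraries at the ends was kept at equal depth. A SAN cluster of 311 fibroblast-like cells led by Dcn, Mfap4, Ptn and Lum, matrix genes, had a level of 1.96 and a Slit2 UMI in 68.8% of its cells.

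By the mean over libraries, mural-like cells, the pericytes and smooth muscle around vessels, came next for Slit2 among the named classes. Their levels were 0.841 in the SAN, 0.304 in the AVN/His, 0.150 in the BB/PF left and 0.235 in the BB/PF right library. In the BB/PF left library the endocardial-like level of 0.184 was above the mural-like one, with overlapping intervals. Fibroblast-like and mural-like levels overlapped between libraries but within each library the fibroblast-like level was higher. Valve mesenchyme-like cells had a level of 0.280 (0.228 to 0.339). Endocardial-like cells, the inner lining of the chambers, had 0.109 to 0.225. Vascular endothelial-like cells had the lowest mean, with 0.0247 to 0.0451, and cardiomyocyte-like cells had 0.0404 to 0.0475. In cardiomyocyte-like cells as a whole 1.68% to 3.74% held a Slit2 UMI, which is at or under the background share, although they held 47.9% of all Slit2 UMIs of the BB/PF left library. That share came mostly from 33 cells described under the conduction components. With the conduction component cells set aside, cardiomyocyte-like Slit2 was 0.0121 (BB/PF left) and 0.0207 (BB/PF right). There the vascular endothelial-like levels, 0.0247 and 0.0260, were no longer below the cardiomyocyte-like ones.

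Slit3, the other Slit ligand measured, had a different set of sources. Epicardial-like cells, the outer covering of the heart, had levels of 0.746 (0.637 to 0.869) in the SAN and 1.26 (0.900 to 1.71) in the AVN/His library, with a UMI in 48.1% and 73.1% of cells against 2.95% of macrophage-like cells. The second value rests on 26 cells and 40 UMIs. Both lay above every other named class in their library.

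Mural-like Slit3 was split by region, at 0.519 (0.425 to 0.628) in the SAN and 0.415 (0.339 to 0.502) in the AVN/His library, 0.0377 in the BB/PF right library and 0 in the BB/PF left library, where 0 of 150 cells allows a level of up to 0.0237 and a share of up to 2%. In the SAN and AVN/His libraries a mural-like cluster led by Eln, Fbln5 and Tagln, genes of elastic fibers and smooth muscle, carried the higher levels, 1.78 (1.37 to 2.27) over 77 cells and 0.841 (0.669 to 1.04) over 134 cells. No mural-like cluster of the ventricular libraries was led by these genes, and the mural-like cells of the regions are therefore not the same mixture.

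Cardiomyocyte-like Slit3 also differed by region. Its level was 0.282 (0.263 to 0.302) in the SAN library, where nearly all cardiomyocyte-like cells were atrial-like, and 0.0274, 0.0082 and 0.00589 in the AVN/His, left and right libraries, where most were ventricular-like. The ventricular-like cells alone, without the conduction component cells described below, had 0.0192, 0.00258 and 0.00381. A UMI was found in 23.3% of all cardiomyocyte-like cells in the SAN library and in 2.63%, 0.599% and 0.590% in the others. These last 3 are no higher than the pooled background share of 2.95%, but 10 of the 12 macrophage-like cells behind it were in the SAN library. In the AVN/His, left and right libraries 2 of 85, 0 of 22 and 0 of 90 macrophage-like cells held a UMI. The zeros allow shares of up to 13.6% and 3.33%, so the background of these libraries is poorly known. Fibroblast-like levels were likewise highest in the SAN library, at 0.259, 0.178, 0.0273 and 0.0384. Endocardial-like levels were highest in the left library instead, at 0.158, 0.0669, 0.345 (0.193 to 0.568) and 0.136, and vascular endothelial-like levels were 0 to 0.0355.

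Ntn1, which encodes netrin-1, was highest in cardiomyocyte-like cells among the named classes of every library. The levels were 0.280 (0.261 to 0.300) in the SAN, 0.234 (0.217 to 0.252) in the AVN/His, 0.622 (0.597 to 0.647) in the BB/PF left and 0.374 (0.350 to 0.399) in the BB/PF right library, a mean of 0.377 ± 0.173 (SD, n = 4 libraries). The left ventricular library was highest and its interval stood apart from the right one. Cardiomyocyte-like cells held 76.0%, 82.0%, 95.2% and 76.8% of all Ntn1 UMIs of their libraries. The shares of cells with a UMI were 21.9%, 18.1%, 38.7% and 28.4%, against 3.44% of macrophage-like cells, and 3.70%, 3.37%, 9.31% and 5.58% after thinning. Endocardial-like cells followed at 0.0852 to 0.143 and fibroblast-like cells at 0.0586 to 0.122, ranges that lie below the lowest cardiomyocyte-like value. Ntn1 in the other named classes was at or under 0.137, the macrophage-like value of the BB/PF left library, which rests on 2 UMIs. Hemoglobin-rich cells, which were given no class, had 0.358 (0.259 to 0.482), 0.434 (0.323 to 0.570), 0.458 and 0.336 in the SAN, AVN/His, left and right libraries. These values lie above the cardiomyocyte-like level in the SAN library, with overlapping intervals, and in the AVN/His library, with intervals apart.

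Ntn4, which encodes netrin-4, a netrin of basement membranes, was a gene of few counts. Its endocardial-like level was 0.311 (0.240 to 0.396) in the AVN/His library and 0.0435, 0.0230 and 0.0561 in the SAN, left and right libraries. The AVN/His value came from a single cluster of 188 cells led by Fabp5, Igfbp5, H19 and Ccl21a, the last a gene of lymphatic endothelium, and this cluster carried 3 of 5 lymphatic markers. The part of lymphatic cells in this level was not tested, and without the AVN/His library the endocardial-like mean of 0.0409 was no longer above the cardiomyocyte-like mean of 0.0436. Cardiomyocyte-like levels were 0.00344 in the SAN library and 0.0882, 0.0543 and 0.0732 in the AVN/His, left and right libraries, with a UMI in 0.303%, 8.52%, 4.74% and 7.21% of cells against 0.737% of macrophage-like cells. The SAN library, in which these cells were atrial-like, was thus at the pooled background share and the libraries with ventricular-like cells were above it. That share rests on 3 macrophage-like cells. In the left library 0 of 22 held a UMI, which allows a share of up to 13.6%. Whether the left ventricular share lies above its own background cannot be told. The endocardial-like, cardiomyocyte-like and valve mesenchyme-like ranges overlapped, and no fibroblast-like, mural-like or vascular endothelial-like value of Ntn4 passed 0.0252. Hemoglobin-rich cells, which were given no class, had Ntn4 levels of 0.00832, 0.204 (0.131 to 0.304), 0.0716 and 0.159 (0.128 to 0.195) in the SAN, AVN/His, left and right libraries. In the AVN/His and right libraries these lay above the cardiomyocyte-like levels, with intervals apart.

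**Figure D1:**
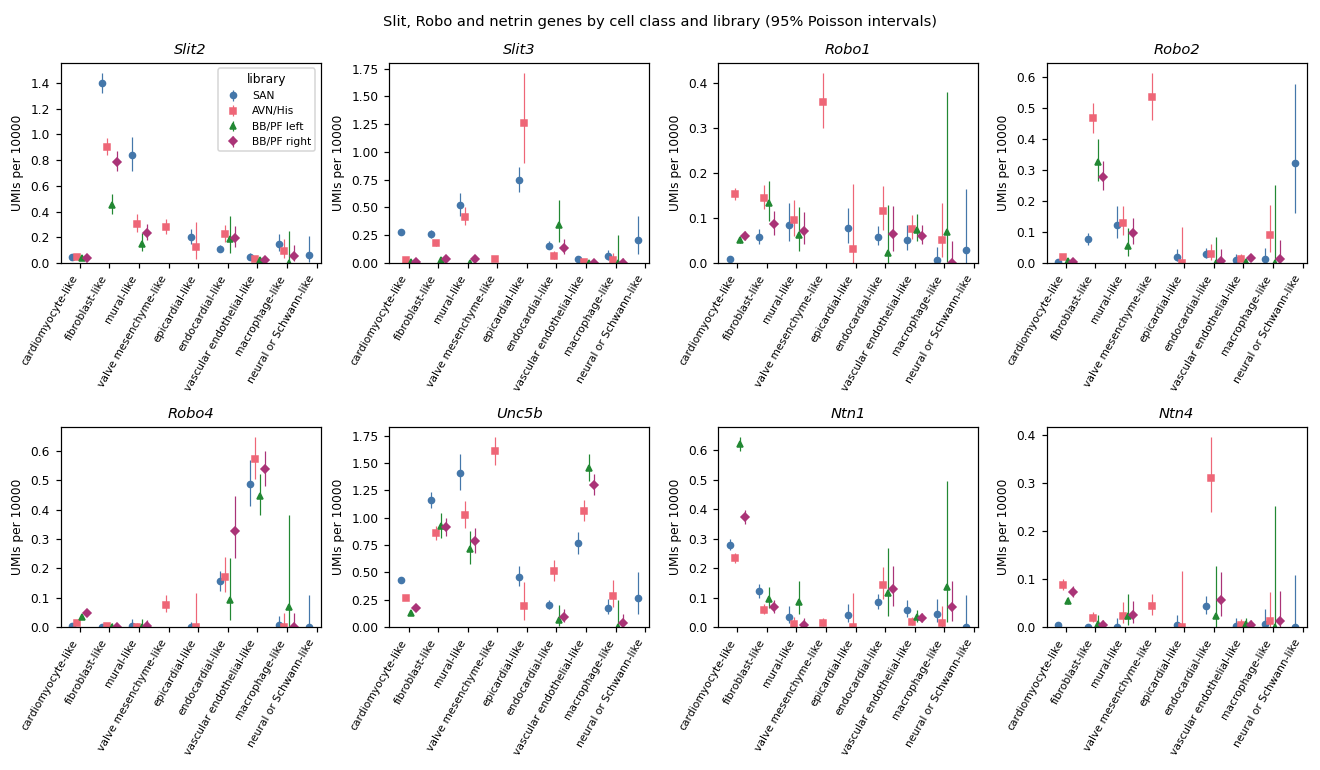
Levels of the 8 genes by cell class, 1 panel per gene, with the level in UMIs per 10000 on the y axis and the class on the x axis. Each marker is 1 library and each bar its exact 95% Poisson interval, and Robo4 stands out in vascular endothelial-like cells at 0.448 to 0.573 while Ntn1 stands out in cardiomyocyte-like cells at 0.234 to 0.622.

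Among the receptors, Robo1 was spread thinly over many classes. Valve mesenchyme-like cells, found in the AVN/His library alone, had the highest level of 0.358 (0.299 to 0.424), with a UMI in 24.7% of cells against 1.23% of macrophage-like cells. Fibroblast-like levels were 0.0582, 0.145, 0.133 and 0.0865 in the SAN, AVN/His, left and right libraries, and mural-like levels were 0.0631 to 0.0948. Cardiomyocyte-like levels were 0.00929 in the SAN library and 0.153 (0.140 to 0.168), 0.0518 and 0.0597 in the AVN/His, left and right libraries. The AVN/His cardiomyocyte-like level stood apart from the other 3 by its interval, and a cluster of 224 ventricular-like cells led by Kcne1, Ankrd1, Acta1 and Csrp3 had 0.494 there. Apart from the valve mesenchyme-like value, the ranges of neighboring classes overlapped.

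Among the named classes, Robo2 was found mainly in fibroblast-like and valve mesenchyme-like cells. Mixed mesenchyme of the AVN/His library, which was given no class, had 0.624 (0.536 to 0.723), with a UMI in 30.7% of cells. The valve mesenchyme-like level was 0.535 (0.463 to 0.615), with a UMI in 36.8% of cells against 1.72% of macrophage-like cells. Fibroblast-like levels were 0.0768 in the SAN, 0.467 (0.421 to 0.517) in the AVN/His, 0.327 in the BB/PF left and 0.279 in the BB/PF right library, in 5.83%, 27.6%, 24.1% and 23.3% of cells. The SAN library, where the ligand Slit2 was highest in fibroblast-like cells, was thus the lowest for Robo2. Neural or Schwann-like cells had 0.324 (0.162 to 0.579) on 11 UMIs. Cardiomyocyte-like levels of Robo2 were 0.00378 to 0.0187 and their shares of 0.311% to 1.26% lay under the background share.

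Robo4 was an endothelial receptor. Vascular endothelial-like levels were 0.487 (0.412 to 0.571) in the SAN, 0.573 (0.504 to 0.649) in the AVN/His, 0.448 (0.382 to 0.523) in the BB/PF left and 0.538 (0.479 to 0.601) in the BB/PF right library, a mean of 0.511 ± 0.055 (SD, n = 4 libraries), and the intervals of all 4 libraries overlapped. A UMI was found in 36.6%, 47.5%, 44.8% and 48.8% of these cells and in 0.491% of macrophage-like cells. Endocardial-like cells had lower levels in each library, at 0.156, 0.172, 0.0919 and 0.329, and the vascular level was 3.12 (2.38 to 4.12), 3.33 (2.34 to 4.87), 4.88 (1.87 to 18.1) and 1.64 (1.18 to 2.33) times the endocardial one. No Robo4 UMI was seen in 181 and 26 epicardial-like cells, which allows a share of up to 1.66% and 11.5%, and fibroblast-like cells held 1, 2, 0 and 1 UMIs in the 4 libraries.

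Cardiomyocyte-like Robo4 was 0.00482, 0.0130, 0.0343 and 0.0467, and these cells nevertheless held 43.1% of the Robo4 UMIs of the BB/PF left and 22.9% of those of the BB/PF right library. A left cluster of 81 cells had 0.269 and a right cluster of 76 cells had 0.323. With cells left out that carried over 1% hemoglobin UMIs or at least 3 of 8 endothelial markers, the mean over libraries was 0.0107 in place of 0.0247. The level in cardiomyocyte-like cells thus moved with cells that also carry markers of endothelium or blood.

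Unc5b, a netrin receptor, was the most widely found member. Valve mesenchyme-like cells had 1.61 (1.48 to 1.74), with a UMI in 67.7% of cells against 6.39% of macrophage-like cells. Vascular endothelial-like levels were 0.767 (0.673 to 0.871), 1.06 (0.968 to 1.16), 1.45 (1.33 to 1.58) and 1.30 (1.21 to 1.40) in the SAN, AVN/His, left and right libraries. The SAN library was lowest, and a UMI was found in 21.9% of its vascular endothelial-like cells against 47.2%, 62.5% and 54.0% in the others, with 4.91%, 13.7%, 17.7% and 15.0% after thinning.

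Mural-like cells had Unc5b levels of 1.41, 1.02, 0.717 and 0.784 and fibroblast-like cells had 1.16, 0.860, 0.923 and 0.917, so in both the SAN library was highest and the order differed from that of the vascular endothelial-like cells. The ranges of vascular endothelial-like, mural-like and fibroblast-like cells overlapped, and the fibroblast-like range stood apart from the epicardial-like one, at 0.189 and 0.457. Cardiomyocyte-like levels were 0.430, 0.264, 0.126 and 0.177. The share of left ventricular cardiomyocyte-like cells with an Unc5b UMI, 6.75%, was close to the background share pooled over libraries, 6.39%. In the left library itself 0 of 22 macrophage-like cells held one, which allows a share of up to 13.6%. Whether the left ventricular share lies above its own background cannot be told from so few cells. Endocardial-like levels were 0.203, 0.511, 0.0689 and 0.0962.

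**Figure D2:**
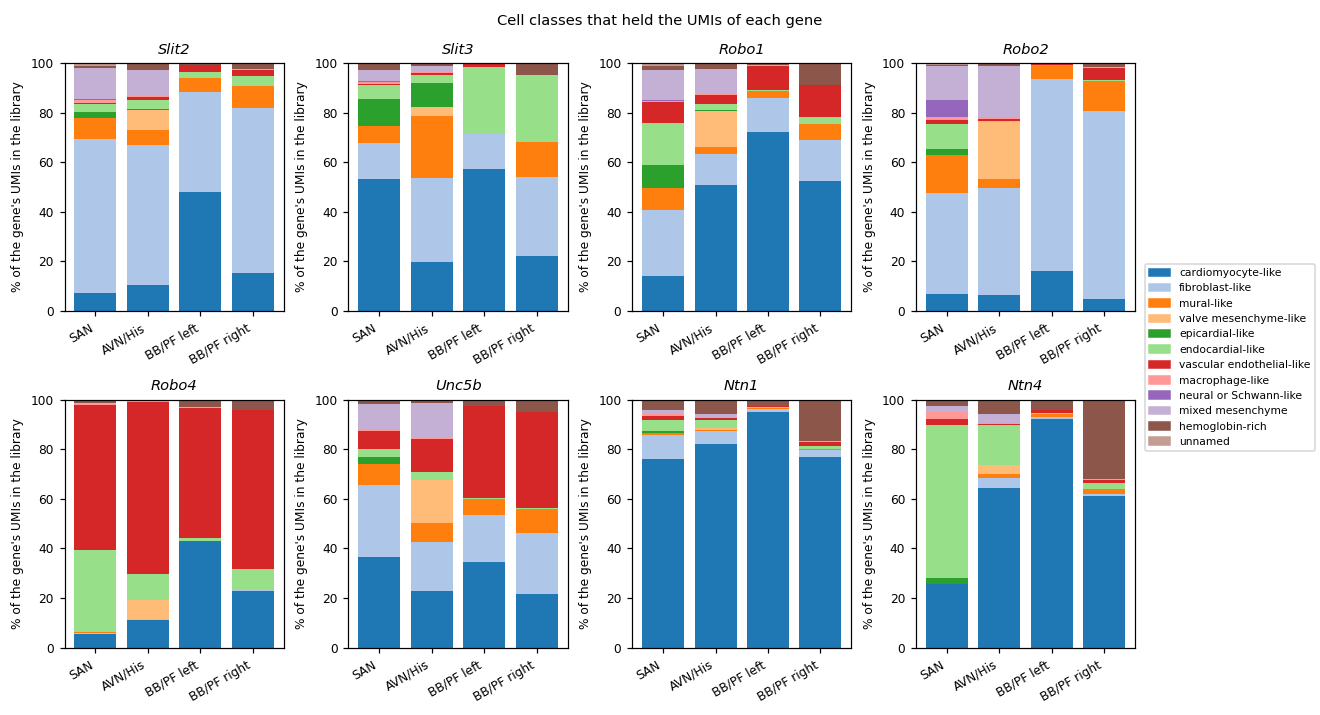
Sources of each gene's UMIs, as stacked bars of the percent of a gene's UMIs in a library by cell class, 1 bar per library and 1 panel per gene. Cardiomyocyte-like cells held 76.0% to 95.2% of Ntn1 UMIs, fibroblast-like cells 40.3% to 66.2% of Slit2 UMIs and vascular endothelial-like cells 52.4% to 69.7% of Robo4 UMIs, shares that also depend on how many cells of a class a library held.

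To compare classes across libraries, the counts of each class were summed within each library and tested by edgeR's quasi-likelihood test with the library as a block, over 13982 genes. Each comparison apart from the epicardial-like one uses the same 4 libraries, and the libraries are regions and not repeated samples of 1 region. With the library as a block, p-values rest on how differences between classes vary from library to library. That spread is estimated over all classes of a fit and is in part shared over genes. The classes were formed in the same cells but without these genes.

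Against cardiomyocyte-like cells, fibroblast-like cells were higher in Slit2, Robo2 and Unc5b and lower in Ntn1, Ntn4 and Robo4. Of all genes tested, 28.9% were higher and 31.8% lower in this comparison, so 3 and 3 of 8 members compare with a background in which most genes differed. Slit2 had a log2 fold change of 3.86 (SE 0.30, edgeR adjusted p = 2.27e-10) and Robo2 one of 4.81 (SE 0.43, edgeR adjusted p = 1.78e-09), each higher in 4 of 4 libraries. Ntn1 fell by 2.42 on the log2 scale (SE 0.30, edgeR adjusted p = 3.32e-07). In this pair of classes, therefore, the ligand Slit2 and the receptor Robo2 were on the fibroblast-like side and the ligand Ntn1 on the cardiomyocyte-like side. Unc5b was higher by 1.69 (SE 0.35), and Ntn4 and Robo4 had -3.13 (SE 0.56) and -3.92 (SE 0.74). Slit3 at 0.95 (SE 0.65, edgeR adjusted p = 0.213) and Robo1 at 0.41 (SE 0.40, edgeR adjusted p = 0.380) did not pass. Without the SAN library, in which atrial-like cells carried Slit3, Slit3 passed at 2.16. Without the AVN/His library Robo4 had -4.52 and Ntn4 -3.92, and Robo4 had -4.63 without doublets and -5.41 with 20 principal components.

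Endothelial classes differed from cardiomyocyte-like cells above all in Robo4. In endocardial-like cells 2 members were higher and 1 lower, against 27.3% and 29.3% of all genes. Robo4 had 2.70 (SE 0.41, edgeR adjusted p = 8.64e-06) and Slit2 had 1.32 (SE 0.36, edgeR adjusted p = 0.00323), while Ntn1 had -2.02 (SE 0.34, edgeR adjusted p = 2.18e-05). The Slit2 call was lost without the AVN/His library, at 1.06. Unc5b at -0.49 (SE 0.41, edgeR adjusted p = 0.319) did not pass in endocardial-like cells, and did at -1.199 without the AVN/His library. Slit3 at 1.15 (SE 0.81, edgeR adjusted p = 0.244) passed without the SAN library at 2.99 and by DESeq2 at 2.97, Robo2 at 1.33 (SE 0.64, edgeR adjusted p = 0.0807) passed without the AVN/His library at 1.96, and Ntn4 at 0.91 (SE 0.47, edgeR adjusted p = 0.107) passed without the BB/PF right library at 1.49. With the hemoglobin-carrying and endothelial-marked cells left out, Robo4 had 3.69 here, -2.84 in fibroblast-like and 5.33 in vascular endothelial-like cells.

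In vascular endothelial-like cells 2 members were higher and 3 lower than in cardiomyocyte-like cells, against 28.9% and 33.1% of all genes. Robo4 had 4.30 (SE 0.38, edgeR adjusted p = 2.69e-09) and Unc5b 2.12 (SE 0.36, edgeR adjusted p = 2.42e-05), so the receptor pair described as partners was higher in the same class. Ntn1 had -3.73 (SE 0.35), Ntn4 -3.71 (SE 0.66) and Slit3 -2.67 (SE 0.99, edgeR adjusted p = 0.0234), of which Slit3 no longer passed without the SAN (-2.39) or the AVN/His library (-2.66), and had -3.26 without the library block. Slit2 had -0.77 (SE 0.38, edgeR adjusted p = 0.0862) and passed under 4 of the alternative settings, at -0.72 to -0.94. The cardiomyocyte-like sums include the Purkinje fiber-like cells described below. With those cells set aside, cardiomyocyte-like Slit2 was 0.0121 (BB/PF left) and 0.0207 (BB/PF right). These levels lie below the vascular endothelial-like 0.0247 and 0.0260, with overlapping intervals. For the SAN and AVN/His libraries the vascular endothelial-like level stayed the lower one. The difference without those cells was not tested.

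Set directly against each other, vascular endothelial-like cells were higher than endocardial-like cells in Robo4 and Unc5b and lower in all 4 ligands, where 15.0% of all genes were higher and 15.8% lower. Unc5b had 2.61 (SE 0.42, edgeR adjusted p = 7.29e-05) and Robo4 1.601 (SE 0.37, edgeR adjusted p = 0.00266). The ligands had -2.09 for Slit2 (SE 0.43, edgeR adjusted p = 8.40e-04), -1.72 for Ntn1 (SE 0.42), -3.82 for Slit3 (SE 1.12, edgeR adjusted p = 0.0130) and -4.62 for Ntn4 (SE 0.70). The Slit3 call was lost without the library block (-3.78) and without the BB/PF right library (-3.06), and the Ntn1 call without the AVN/His library (-1.25). Slit3 ranged from -5.38 without the SAN library over -4.46 without the AVN/His to -3.20 without the left library and had -5.70 by DESeq2, and it is the least certain of these sizes. Without the AVN/His library Unc5b had 3.47 and Ntn4 -3.87, and without the SAN library Ntn1 had -2.33. Robo1 at -0.016 (SE 0.51) and Robo2 at -1.04 (SE 0.75) did not pass.

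Among the stromal classes, mural-like cells were lower than fibroblast-like cells in 3 members and higher in 0, against 6.34% and 6.62% of all genes. Slit2 had -1.27 (SE 0.29, edgeR adjusted p = 0.00396), Ntn1 -1.56 (SE 0.45, edgeR adjusted p = 0.0216) and Robo2 -1.35 (SE 0.42, edgeR adjusted p = 0.0350). Without the AVN/His or without the BB/PF right library 0 members passed edgeR's test, with 3 at an unadjusted p under 0.05 in each case, and DESeq2 called 2 on all libraries. Without the library block Slit2 alone passed. Robo2 had -1.94 without the SAN library, and Ntn1 -2.24 without the left library and -2.22 without doublets. Unc5b had -0.018 (SE 0.35), with no difference detectable between these classes.

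Epicardial-like cells, summed from 2 libraries, were lower than fibroblast-like cells in 3 members and higher in 0, against 11.5% and 13.0% of all genes. Slit2 had -2.70 (SE 0.48, edgeR adjusted p = 2.65e-04), Robo2 -3.79 (SE 0.90, edgeR adjusted p = 0.00349) and Unc5b -1.66 (SE 0.55, edgeR adjusted p = 0.0317), of which Unc5b did not pass without the library block or without any 1 of the 4 libraries and had -2.65 without the SAN library. The AVN/His epicardial-like cells held 0 Robo2 UMIs, which allows a level of up to 0.0944, so no size is given for Robo2 from that library alone. Slit3 had 2.08 (SE 0.85, edgeR adjusted p = 0.0802) and did not pass, although its level was higher in epicardial-like cells in both libraries.

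**Figure D3:**
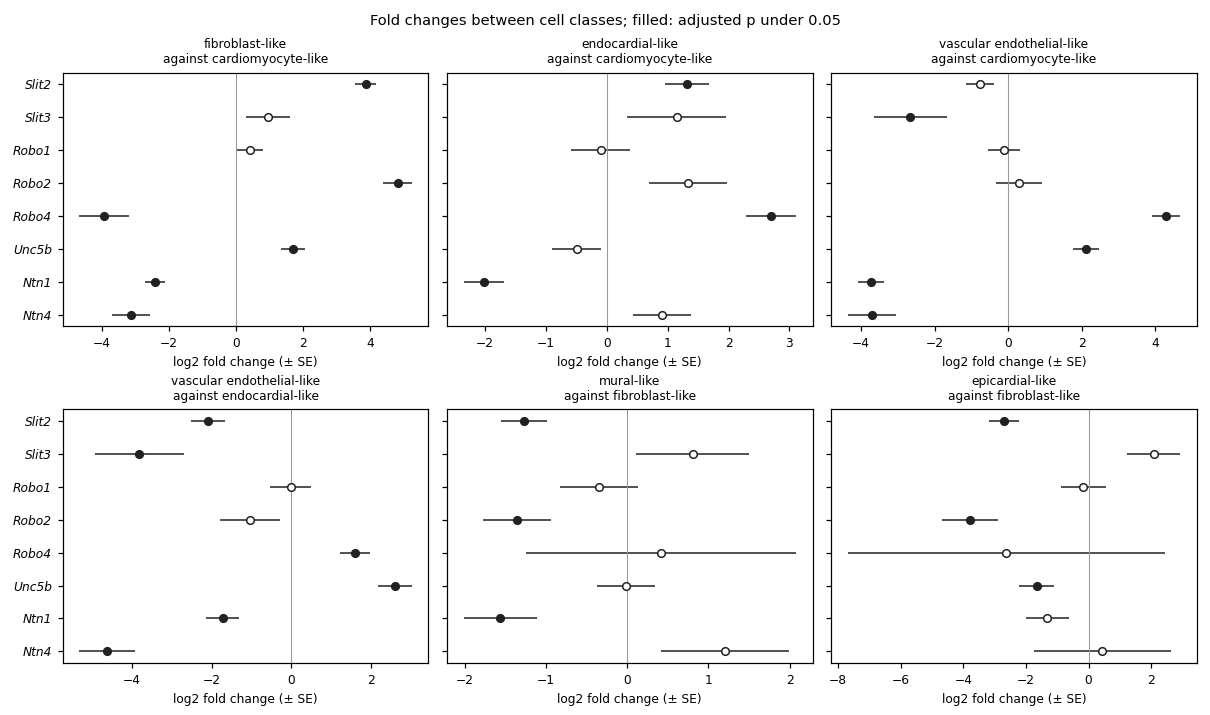
Log2 fold changes of the 8 genes in 6 comparisons of cell classes, 1 panel per comparison, with bars of 1 SE and filled points for an adjusted p under 0.05 in edgeR's quasi-likelihood test. Robo4 and Unc5b lie to the right of 0 and Ntn1 to the left in the vascular endothelial-like panel, and the epicardial-like Robo4 point rests on 0 UMIs in epicardial-like cells and is not a measured size.

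The conduction system is made of cardiomyocytes that start and carry the heartbeat, and the 4 libraries each held a small group of cardiomyocyte-like cells with its markers. These were 145 SAN-like cells led by Igfbp5, Shox2, Smoc2 and Vsnl1, 161 AVN/His-like cells, and 33 left and 15 right Purkinje fiber (PF)-like cells led by Dcpp1, Nppa, Mgp and Gpx3. The AVN/His-like cluster carried 6 of 8 AVN/His and also 6 of 8 atrial markers and was led by Myl7, Sln and Nppa, so atrial cells and node cells cannot be told apart in it. All 9 PF markers, which also gave the group its name, were more frequent in the PF-like cells, with Irx2 in 75.0% against 5.72% and Gja5, a conduction gap junction gene, in 93.8% against 15.4% of all other cells. None of the 48 PF-like cells carried over 1% hemoglobin UMIs or at least 3 of 8 endothelial markers. The cells they are set against differ by region: the other cardiomyocyte-like cells were atrial-like in the SAN library and ventricular-like in the AVN/His and both BB/PF libraries, so in the AVN/His library atrial against ventricular and conduction against working cells cannot be told apart. The study itself listed Slit2 and Unc5b among genes of these components on the same libraries, so their values here are a description with no test.

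Slit2 was higher in PF-like cells than in the rest of the cardiomyocyte-like cells. Its level was 3.63 (2.98 to 4.37) in the left and 3.34 (2.45 to 4.44) in the right PF-like cells, against 0.0121 and 0.0207 in the remaining cardiomyocyte-like cells there. A UMI was found in 28 of 33 left cells (84.8%, exact binomial interval 68.1% to 94.9%) and 10 of 15 right cells (66.7%, interval 38.4% to 88.2%), with up to 13 and 15 UMIs in a cell. The 33 left cells held 33.6% and the 15 right cells 7.59% of all Slit2 UMIs of their library, beside 40.3% and 66.2% in fibroblast-like cells. Fibroblast-like levels in these libraries, 0.453 and 0.788, lay below those of the PF-like cells as drawn here. SAN-like cells had 0.0220 on 3 UMIs and AVN/His-like cells 0.0541 on 10 UMIs, near the other cardiomyocyte-like cells of their libraries at 0.0487 and 0.0452, and the ratios of 0.452 (0.0921 to 1.35) and 1.198 (0.561 to 2.28) did not separate from 1. The PF-like level depends on where the group is drawn: with 20 principal components it held 43 and 24 cells at 3.09 and 2.71, and at 1.5 times the cluster resolution it held 139 and 141 cells at 0.961 and 0.541.

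Slit3 had the same order within the ventricular libraries and another one in the SAN. PF-like levels were 0.719 (0.450 to 1.09) on 22 UMIs in the left and 0.355 (0.115 to 0.829) on 5 UMIs in the right library, against 0.00258 and 0.00381 in other cardiomyocyte-like cells. AVN/His-like cells had 0.152 against 0.0192 in cells that were all ventricular-like, a contrast that the atrial markers of this cluster touch, since Slit3 was 0.287 in atrial-like cells of the SAN library and 0.00807 over all ventricular-like cells. SAN-like cells had 0.184 against 0.287, a ratio of 0.639 (0.411 to 0.951), so here the component was below the other, mainly atrial-like, cells. Over all components Slit3 had a log2 fold change of 3.38 (SE 1.35, edgeR adjusted p = 0.209) and did not pass.

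Unc5b was higher in all 4 groups. SAN-like cells had 1.46 (1.27 to 1.68) against 0.380, AVN/His-like cells 1.37 (1.21 to 1.55) against 0.192, left PF-like cells 0.980 (0.661 to 1.40) against 0.119 and right PF-like cells 1.14 (0.650 to 1.85) against 0.171. The ratios were 3.85 (3.29 to 4.49), 7.14 (6.12 to 8.31), 8.21 (5.48 to 11.9) and 6.64 (3.76 to 10.9). A UMI was found in 68.3%, 64.0%, 57.6% and 66.7% of the component cells, and in 15.9%, 19.3%, 15.2% and 13.3% after thinning. The intervals of the components overlapped each other, while the other cardiomyocyte-like cells ranged from 0.119 to 0.380. Its log2 fold change over the 4 libraries was 2.37 (SE 0.22).

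Robo2 and Robo1, which receive Slit signals, rested on at most 45 UMIs per group, at levels above the other cardiomyocyte-like cells. Robo2 in left PF-like cells lay near the fibroblast-like level of that library, 0.327. In right PF-like cells, on 1 UMI, Robo2 lay below the fibroblast-like 0.279. PF-like Robo1 lay above the fibroblast-like 0.133 and 0.0865 of the left and right libraries, with overlapping intervals. Robo2 had 0.0514 on 7 UMIs in SAN-like, 0.0812 on 15 UMIs in AVN/His-like and 0.359 on 11 UMIs in left PF-like cells, against 0.00144, 0.0146 and 0.00232 in other cardiomyocyte-like cells, and the right PF-like cells held 1 UMI. It passed with a log2 fold change of 4.44 (SE 0.87, edgeR adjusted p = 0.0390), where 1.05% of all 11823 genes were higher and 0.575% lower. The call was lost without either ventricular library (3.37 without the left, 4.52 without the right), with 20 principal components (3.60) and without the library block (4.19). Its value was 5.60 without the AVN/His library, 3.69 without doublets and 3.55 at 1.5 times the resolution. Robo1 had 0.0514, 0.244 (0.178 to 0.326), 0.294 and 0.355 against 0.00722, 0.147, 0.0498 and 0.0580, a log2 fold change of 1.71 (SE 0.45, edgeR adjusted p = 0.0817) that passed in 7 of the other settings on these components.

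Of the 6 members other than Slit2 and Unc5b, Robo2 alone passed and 0 fell, while DESeq2 called Robo1, Robo2 and Slit3. Without the library block edgeR called 0 of 8 members, with 3 at an unadjusted p under 0.05, and 0 of all genes, with 2730 at an unadjusted p under 0.05. Ntn1 had 2.22 (1.73 to 2.82) in left PF-like cells against 0.609, and 0.569 (0.245 to 1.12) against 0.373 in the right ones, while SAN-like and AVN/His-like cells had 0.213 and 0.189 against 0.283 and 0.237. Its log2 fold change over the components was 0.20 (SE 0.36, edgeR adjusted p = 0.863). Ntn4 and Robo4 were seen in few component cells, with 4 Ntn4 UMIs and 0 Robo4 UMIs in the 161 AVN/His-like cells, the latter allowing a share of up to 1.86%.

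A fit of the PF-like sums alone, added after the pattern was seen, had 4 sums from 2 libraries and 48 cells, and its p-values rest on a spread shared over genes rather than on that between libraries, so none is given for a gene. It put 6 of 8 members, Slit2 and Unc5b included, and 6.83% and 12.2% of 11721 genes, higher and lower, under the threshold, and nothing is read from these counts. The log2 fold changes were 7.46 for Slit2, 7.16 for Slit3, 6.13 for Robo2, 2.56 for Unc5b, 2.23 for Robo1 and 1.24 for Ntn1. In the left PF-like cells the intervals of all 6 ratios to the other cardiomyocyte-like cells lay above 1, and in the right ones those of Slit2, Slit3, Robo1 and Unc5b did, whereas Robo2 at 21.0 (0.473 to 157) and Ntn1 at 1.53 (0.657 to 3.02) did not. These 6 genes were picked by that fit on the same cells, so the intervals describe them and add no separate support.

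**Figure D4:**
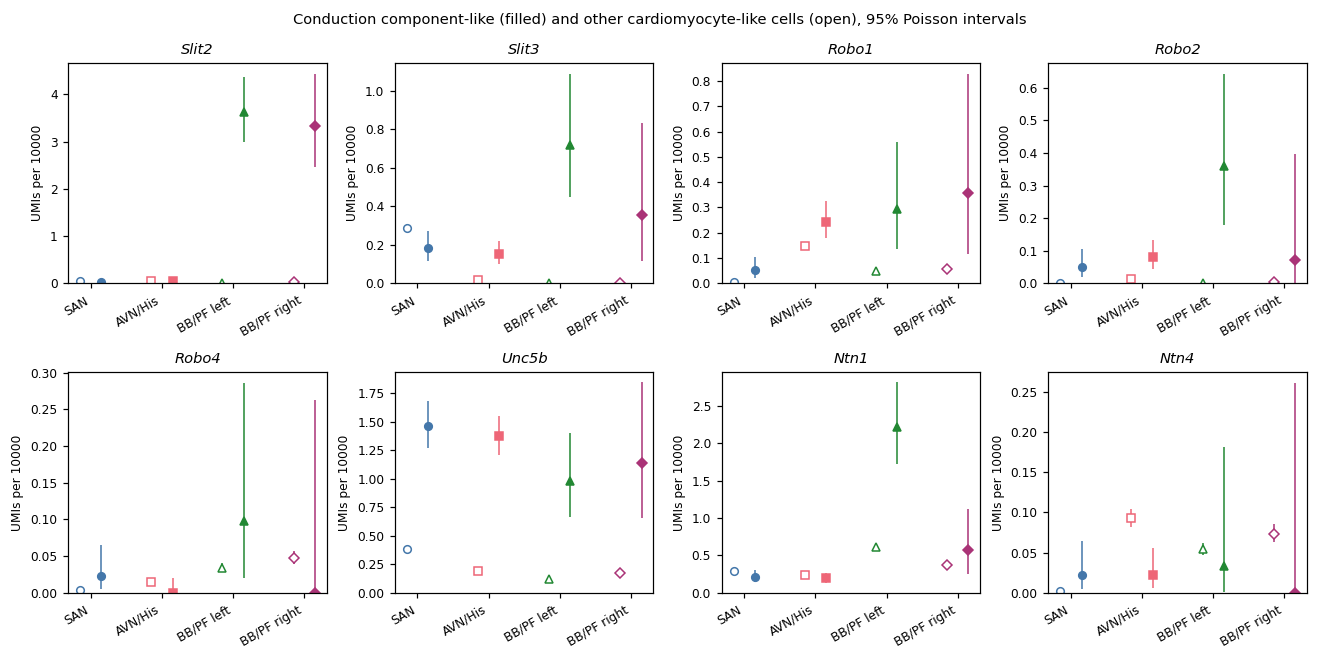
Levels in the conduction components (filled) and in the rest of the cardiomyocyte-like cells of that library (open), 1 panel per gene, in UMIs per 10000 with exact 95% Poisson intervals. Slit2 separates the PF-like cells, at 3.63 and 3.34, from the SAN-like and AVN/His-like cells at 0.0220 and 0.0541, and Unc5b is higher in all 4 components.

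Slit ligands and Robo receptors were also counted in the same fibroblast-like cells. In the SAN, AVN/His, left and right libraries 38, 120, 22 and 61 cells held both Slit2 and Robo2, where the product of the single shares gives 35.4, 119.5, 21.2 and 58.6. For Slit2 with Robo1 the counts were 26, 33, 14 and 21 against 27.9, 44.1, 10.9 and 20.3. Slit3 was found with Robo2 in 13, 17, 1 and 3 cells against 10.6, 28.7, 1.69 and 4.19, and with Robo1 in 7, 5, 0 and 0 cells against 8.34, 10.6, 0.866 and 1.45. The counts for Slit2 with Robo2 were thus near the product in each library, and those for the other 3 pairs were below it in the AVN/His library. The receptors Robo4 and Unc5b were found together in 29, 79, 69 and 105 vascular endothelial-like cells against 17.9, 67.0, 65.0 and 96.6. In endocardial-like cells this pair was below the product instead, in 7, 6, 0 and 1 cells against 9.70, 8.90, 0.188 and 2.57. Slit2 and Unc5b were found together in 17 of the 33 left PF-like cells against 16.1. Deeper cells hold more of both genes, and these counts were given no test.

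Other genes of the pathways were counted from a list of 33, of which 32 were in the gene tables. Of 24 that were tested, 12 were higher and 8 lower in fibroblast-like than in cardiomyocyte-like cells, where 28.9% and 31.8% of all genes were, with a median log2 fold change of 0.39 against -0.044 over all genes. The netrin receptor Unc5c had 4.77 (SE 0.46, edgeR adjusted p = 6.73e-09), the teneurin and FLRT receptor Adgrl3 3.73 (SE 0.34), and the repulsive guidance molecules Rgma and Rgmb 1.87 and 1.52. The heparan sulfate carrier Gpc1 had -2.78 (SE 0.26), Dag1, which encodes the Slit-binding dystroglycan, -1.76 (SE 0.13, edgeR adjusted p = 5.78e-11) and the netrin receptor neogenin, Neo1, -1.11. The 2 netrin receptors Unc5c and Neo1 thus lay on opposite sides of this pair of classes.

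In endocardial-like against cardiomyocyte-like cells 9 of 24 were higher and 6 lower, where 27.3% and 29.3% of all genes were, with a median of 0.31 against -0.026. Unc5c had 3.33 (SE 0.53), Flrt2, a ligand of Unc5 receptors, 1.84 (SE 0.32, edgeR adjusted p = 4.10e-05), Rgmb 0.81 and the Robo partner Srgap2 1.99 (SE 0.15, edgeR adjusted p = 1.34e-10), while Gpc1, Neo1 and Dag1 had -4.03, -1.49 and -1.22. In vascular endothelial-like cells 8 were higher and 9 lower, where 28.9% and 33.1% of all genes were, with a median of -0.30 against -0.087. Srgap2 had 2.18 (SE 0.14, edgeR adjusted p = 8.68e-12) and Rgmb 0.95, while Gpc1, Flrt3, Neo1, Rgma, Dag1 and Adgrl3 had -4.61, -3.42, -3.24, -2.58, -1.72 and -1.63. Srgap2 and Rgmb were thus higher and Gpc1, Neo1 and Dag1 lower in both endothelial classes.

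Between the endothelial classes 3 of 24 were higher in vascular and 8 in endocardial-like cells, where 15.0% and 15.8% of all genes were, with a median of -0.31 against -0.042. Unc5c had -3.67 (SE 0.75), Flrt3 -3.07, Rgma -2.95, Flrt2 -2.09, Neo1 -1.75 and Dag1 -0.50, and Cap1, an actin regulator, 1.10 (SE 0.15, edgeR adjusted p = 1.33e-05). The Unc5 receptors were therefore divided between them, with Unc5b higher in vascular and Unc5c higher in endocardial-like cells.

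In mural-like against fibroblast-like cells 2 of 24 were higher and 3 lower, where 6.62% and 6.34% of all genes were, with a median of -0.21 against -0.031. Vasp, an actin regulator, had 1.31 (SE 0.17, edgeR adjusted p = 1.58e-05), Dag1 0.41, Unc5c -1.69 and Rgmb -0.88. In epicardial-like against fibroblast-like cells 5 were higher and 4 lower, where 13.0% and 11.5% of all genes were, with a median of -0.44 against -0.087. Flrt2 had 3.23 (SE 0.38, edgeR adjusted p = 1.83e-06), Neo1 2.58 (SE 0.28, edgeR adjusted p = 5.44e-07) and Dag1 1.82 (SE 0.16, edgeR adjusted p = 2.41e-08). Epicardial-like cells thus had the highest mean levels of Flrt2, 3.55 ± 0.21 (SD, n = 2 libraries), and Dag1, 1.996 ± 0.374, of the named classes.

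In the conduction comparison 0 of 21 list genes passed edgeR's test, where 1.05% of all genes were higher and 0.575% lower. Their median was 0.32 against -0.019. At an unadjusted p under 0.05 there were 4, and DESeq2, which also called more of all genes than edgeR did, called 2. Such p-values were common over all genes, since Slit3 at an unadjusted edgeR p of 0.0320 ranked 1815 among 11823. Nothing is read from these counts. Among the list genes the lowest p was that of Gpc1 at 0.93 (SE 0.22, edgeR adjusted p = 0.0684). Some receptors of the pathways were nearly unseen. The highest class means were 0.00226 for Robo3 and 0.0203 for Unc5a, both in epicardial-like cells, and 0.00521 for Unc5d in cardiomyocyte-like cells. The netrin receptor Dcc, added after its values were seen, reached 0.00317 in cardiomyocyte-like cells. At this depth no class could be named as a source of them.

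The genes most like each member were found by the correlation of log levels over the 28 sums of class and library, among 5999 genes with a level of at least 0.5 in a sum. The sums share libraries and classes, and the correlations describe these sums only. Slit2 was most like Tcf21, a transcription factor of cardiac fibroblasts (r = 0.914), Tmem45a (0.911) and Srpx2 (0.905). Robo4 was most like Adgrl4, an endothelial receptor (0.982), Cmtm8 (0.973) and Gimap4 (0.973), the closest match of any member. Robo2 was most like Matn4 (0.906), Tmed2 (0.882) and Frzb (0.869), and Unc5b most like Gprc5b (0.874), Bok (0.874) and Snai2, a transcription factor of mesenchymal cells (0.844). Ntn1 was most like Rragd (0.877), Ppp2r3a (0.872) and Apobec2 (0.871), the last a gene of striated muscle. Slit3 was most like Zfp579 (0.863), Eif4a2 (0.831) and Ptprf (0.821). Robo1 and Ntn4 stayed under that level in every sum, and were nearest to Ptx3 (0.770), Lmcd1 (0.759) and Kcnj15 (0.747), and to Adamts8 (0.766), Ccl21a (0.716) and Prox1 (0.677). Between members the 2 Slit genes had a correlation of 0.389, below those of Slit2 with Robo2 (0.612) and Unc5b (0.463).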

How the data were processed

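Single cells of 4 heart regions of wild-type CD1 embryos at E16.5 were profiled, 1 library per region. The deposited counts are raw UMI counts per gene and barcode, made by the authors with default Cell Ranger on mm10 and not normalized, and the version and gene annotation are not given in the sources used here. Barcodes with at least 500 genes and 1000 UMIs were kept, and all those removed fell under the gene minimum. Doublets were kept, and 80 to 187 cells per library had a Scrublet score of at least 0.2. Cells of each zone were clustered in scanpy 1.11.5 (2000 variable genes without the reported genes, UMI number and ribosomal share regressed out, 10 principal components, 30 neighbors, Leiden resolution 1.6 chosen after 0.8 and 1.2 were viewed) and named from marker lists. Counts were summed per library and class with at least 20 cells (28 sums of 146027 to 39025162 UMIs; for the conduction comparison 8 sums of 140714 to 38719052 UMIs, the 15 right PF-like cells included) and tested in edgeR 4.0.16 (TMM, filterByExpr, quasi-likelihood, Benjamini-Hochberg over all genes, threshold 0.05), a script that was tested on simulated data. The library was a block because each library gives both classes of a comparison, and the SE is the size of the log2 fold change divided by the root of the F statistic. DESeq2 1.42.0, other filters, clusterings and normalizations, doublets or mixed cells left out, and each library left out were alternatives. All 8 genes are reported. Of the pathway list, Neo1, Unc5a, Unc5c, Unc5d, Flrt2, Flrt3, Adgrl3, Gpc1, Dag1, Rgma, Rgmb and Robo3 where they passed the test, and any gene with the lowest p in a comparison, are given with values, beside the 3 most alike genes per member (Pearson's r on log2 of the level plus 0.1). The members, lists and tests were chosen with earlier results of these data known.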

Additional observations from a re-analysis of the deposited data

Results flagged for a closer look

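For 6 combinations of a gene and a pair of classes, over 4 pairs, the ratio of levels lay above 1 in 1 library and below 1 in another, with exact 95% intervals that did not reach 1. Each library is 1 sample and these differences between regions were not tested. Endocardial-like over cardiomyocyte-like Slit3 was 0.558 in the SAN library and 2.44, 42.0 and 23.1 in the AVN/His, BB/PF left and BB/PF right libraries, where the SAN library was the one with atrial-like cells. The same ratio of Unc5b was 0.472 in the SAN and 0.543 in the BB/PF right library and 1.93 in the AVN/His library, whose endocardial-like cluster was also led by Ccl21a. Vascular endothelial-like over cardiomyocyte-like Robo1 was 5.55 in the SAN and 0.497 in the AVN/His library. Mural-like over fibroblast-like Unc5b was 1.21 in the SAN, 1.19 in the AVN/His and 0.777 in the BB/PF left library. The conduction components over other cardiomyocyte-like cells had Slit3 ratios of 0.639 in the SAN and 7.89, 278 and 93.3 in the AVN/His, left and right libraries, and Ntn4 ratios of 8.72 in the SAN and 0.234 in the AVN/His library. The SAN value rests on 3 Ntn4 UMIs, of which 2 were in 1 cell with at least 3 endothelial markers, and without the 3 cells of that kind the SAN-like level was 0.00779 on 1 UMI, in place of 0.0220, against 0.00253 in the other cells.

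Cells outside every comparison also held these genes. Mixed mesenchyme had Unc5b levels of 1.66 in the SAN and 1.72 in the AVN/His library, as high as the valve mesenchyme-like cells. Its Robo2 level in the AVN/His library, 0.624, lay above the valve mesenchyme-like level of 0.535, with overlapping intervals. The 18 unnamed SAN cells, led by Nnat, Stmn2, Gap43 and Nefl, genes of neurons, had a Slit2 level of 1.51. Hemoglobin-rich cells had an Unc5b level of 0.433 in the SAN library and Ntn1 levels of 0.358, 0.434, 0.458 and 0.336 in the SAN, AVN/His, left and right libraries, against 0.280, 0.234, 0.622 and 0.374 in cardiomyocyte-like cells. Their Ntn4 levels of 0.204 in the AVN/His and 0.159 in the right library stood against 0.0882 and 0.0732 in cardiomyocyte-like cells.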

How the results depend on the processing

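All 8 members kept their leading class under the alternatives of clustering, cell filter and thinning. In means taken after the data were seen, leaving out a library kept it for 4 to 8 members: without the AVN/His library, the only one with valve mesenchyme-like cells, Robo1, Robo2 and Unc5b lost that class, and Ntn4 was led by cardiomyocyte-like cells (0.0436 against 0.0409). Of 792 log2 fold changes of members under an alternative, 702 kept their direction and side of the threshold, 24 passed it only under the alternative, 30 no longer passed it and 36 changed sign, none of which had passed on the full data. The 792 include the values of the 8 members for the PF-like sums alone, a fit to fewer cells that was added after the pattern was seen. Leaving out a library gave 0 to 3 called members for mural-like against fibroblast-like cells and 1 to 4 for the conduction components, where DESeq2 gave 4, the PF-like sums alone 6 and the fit without the library block 0, counts that include Unc5b and Slit2, which the study had listed from these libraries. The block pairs classes by library: without it 1 member was called in mural-like cells, Slit3 was not called between the endothelial classes, and Unc5b was not called in epicardial-like cells or the conduction components (2.33), and no other call changed apart from those named with the results. Genes called in the conduction comparison numbered 192, against 830 by DESeq2, 15 to 910 without 1 library, 209 with RLE factors, 427 without the filter, 235 to 921 under other filters and clusterings, 0 by edgeR without the block (2730 at an unadjusted p under 0.05) and 2227 for the PF-like sums alone. Without the SAN library, which left epicardial-like cells in 1 library assumed to vary like the rest, 1107 genes were called there in place of 3420 and 2113 without the AVN/His library, without the AVN/His or BB/PF left or right library 1083, 1007 and 919 in place of 1812 in mural-like cells, and 2740 and 2806 in place of 4302 between the endothelial classes without the AVN/His and the right library. RLE factors moved the median of all genes from -0.026 to 0.078 in endocardial-like cells and the calls from 3815 higher and 4091 lower to 4270 and 3668.

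The changes of sign were as follows, with the range over the fits that leave out a library. In endocardial-like against cardiomyocyte-like cells Robo1 ranged from -0.60 to 0.36 (0.018 and 0.055 without the left and right libraries) and had 0.0027 with RLE factors, and Unc5b from -1.199 to 0.022. In vascular endothelial-like cells Robo1 ranged from -0.46 to 0.46, and Robo2 from -0.22 to 0.91 with -0.017 for 20 principal components. Robo1 between the endothelial classes ranged from -0.18 to 0.14, with 0.057 at 1000 genes per cell, 0.0063 without doublets, 0.030 with 20 principal components, 0.035 at 1.5 times the resolution, 0.066 by DESeq2 and 0.081 without the block. In mural-like cells Robo4 ranged from -0.25 to 1.27 and Unc5b from -0.14 to 0.072, with 0.049 for all variable genes, 0.0039 at 1.5 times the resolution, 0.0045 with RLE factors and 0.028 without the block. In epicardial-like cells Robo1 ranged from -2.47 to 0.32 and Ntn4 from -6.23 to 2.35, with -0.11 at 1000 genes per cell and -1.003 without the block, and Robo4 had 0.86 by DESeq2. In the conduction components Robo4 ranged from -0.69 to 1.07, with -0.90 without doublets, -0.093 for 20 principal components, -0.0072 by DESeq2 and -0.62 without the block, Ntn1 from -0.36 to 0.48 and Ntn4 from -2.18 to 0.23. The cause was not tested. With 15 to 33 PF-like cells, counting limits what can be seen in the ventricular components.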
